A study of Mus musculus with 2 samples.

Results

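Lcn2, Ltf, Pigr, Camp, Saa3, Slpi, Wfdc2, Cd14, Tlr4 and Pglyrp1 encode proteins with which epithelia and leukocytes recognise bacteria or limit their growth. All array probes carrying one of these gene names in the array design were taken, which gave 14 probes for 10 of the 29923 genes measured. Expression was compared in ureters of E18.5 mouse embryos, shortly before birth, of the outbred NMRI strain. Pparg-cKO embryos carried Pax2-cre/+; Pparg(fl/fl), and control embryos carried Pparg(fl/?), where the label leaves one allele open; the study's methods describe them as littermates without cre. The Pax2-cre transgene recombines in the nephric duct, the ureteric epithelium and the collecting duct system, and the floxed segment spans exons 2 and 3 of Pparg, so the mesenchyme of the ureter keeps the gene and a shortened transcript can remain in the epithelium. One two-colour array held a female pool of ureters of each genotype and another a male pool of each, with the dyes exchanged, on the same slide. Sex, dye orientation and array therefore cannot be told apart, and the spread between arrays is not a spread between repeated pools of 1 sex.

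Mucosal surfaces combine several layers of innate defence. Pattern recognition receptors bind bacterial cell wall components and start signalling that induces secreted factors. Some secreted proteins kill bacteria directly, some withhold iron from them, some inhibit proteases, and a transport receptor of the epithelium carries polymeric IgA and IgM into the lumen. In the urinary tract, lipocalin 2, cathelicidin and other secreted peptides are known parts of the defence against ascending bacteria, and many of these genes are also strongly expressed by neutrophils and their precursors.

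The direction of the ratios rests on a choice. By the dye labels, control RNA was red on the female array and Pparg-cKO RNA was red on the male array. The deposited table of fold changes bears the title Pparg-cKO vs control and runs against these labels on each array, with Pearson correlations across probes of 0.905 and -0.932 with the log2 red over green ratio, as did the control and mutant headings of the study's supplementary lists. It is also the direction in which the study's text and its tissue sections, which carry no dye, describe urothelial genes such as Krt20 and Upk1a and the shortened Pparg transcript. The direction of the deposited table was therefore taken as the likely one, in which the mean log2 ratio was -3.09 for Krt20 and -1.51 for Upk1a. Should the dye labels hold, "higher" and "lower" swap throughout, while sizes and p-values stay. In the direction taken, the probe for the targeted gene Pparg, on chromosome 6 at 115440213 to 115440272 (mm9), gave processed signals of 12357 in the female Pparg-cKO pool against 6113 in its control, and of 12930 against 6688 in the male pools. The mean log2 ratio was 0.97, with a limma adjusted p of 0.0373. The probe lies at base 1562 of the transcript. Whether it lies outside the deleted exons was not analysed here, so it does not check the labels.

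For Wfdc2 and Pigr the probe sequence bears on how a value can be read, so stretches of their probes are shown first, each the first 30 of 60 bases as printed on the array. Wfdc2 had 2 probes with no bases in common by position, at base 648 and at base 292 of its transcript (chromosome 2, 164393947 to 164394006 and 164389616 to 164389675, mm9), so that it was measured at separate places.
Wfdc2 probe at base 648: cgatgaaagcatctcctttttctaaccaat
Wfdc2 probe at base 292: actcaatcagcgggccttgaccacactact
Pigr also had 2 probes, shown with every C or T in capitals. The probe at base 3063 of the transcript lies on chromosome 1 at 132748041 to 132748100 (mm9), and RefSeq places Pigr on chromosome 1.
Pigr probe on chromosome 1: TCaTgaTTTTCagaTgagaagagaTgTTTC
Pigr probe on chromosome 19: gaggaggaggaggagaaggagaaggagaag
The other Pigr probe is placed by the array design on chromosome 19 at 5932558 to 5932617, and 60 of its 60 bases are A or G. The design's own annotation of this probe lists transcripts of Pigr, Zfp811 and Rhox8, which RefSeq places on chromosomes 1, 17 and X. A signal of this probe can therefore not be assigned to Pigr. The Camp probes overlap by 50 bases, of which 48 match, with an unbroken shared run of 40, and are not separate measurements of the gene.

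With the offset of 50 used in the main normalisation, which shrinks the ratios of dim genes, Wfdc2 had the largest ratio of the 10 genes and was the one that reached 1.5-fold in the mean. The fold rule asked for a change of at least 1.5-fold, of one sign on both arrays, with a signal of at least 100 in the brighter pool. The signals given here are the scanner's background-corrected and dye-normalised values in arbitrary units. They can be compared between pools of 1 probe but not between probes. They were not scaled between the arrays, so a comparison of pools across arrays also holds differences of array, sex and dye. The limma test used the mean of the log2 ratios of both arrays after loess normalisation, with Benjamini-Hochberg adjustment over 22499 genes above background, and it called 0.751% of these genes at an adjusted p under 0.05. The fold rule was passed by 1.15% of the tested genes. With each gene represented by its brighter probe, limma called 0 of the 10 genes and 0 passed the fold rule. At an unadjusted p under 0.05, limma gave 2 of the 10 genes higher (Wfdc2 and Pglyrp1), where 4.31% of all tested genes were, and 3 lower (Camp, Ltf and Saa3), where 4.2% were. All 10 genes passed the filter on background, although the Pigr row of that count rests on the chromosome 19 probe.

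**Figure D1:**
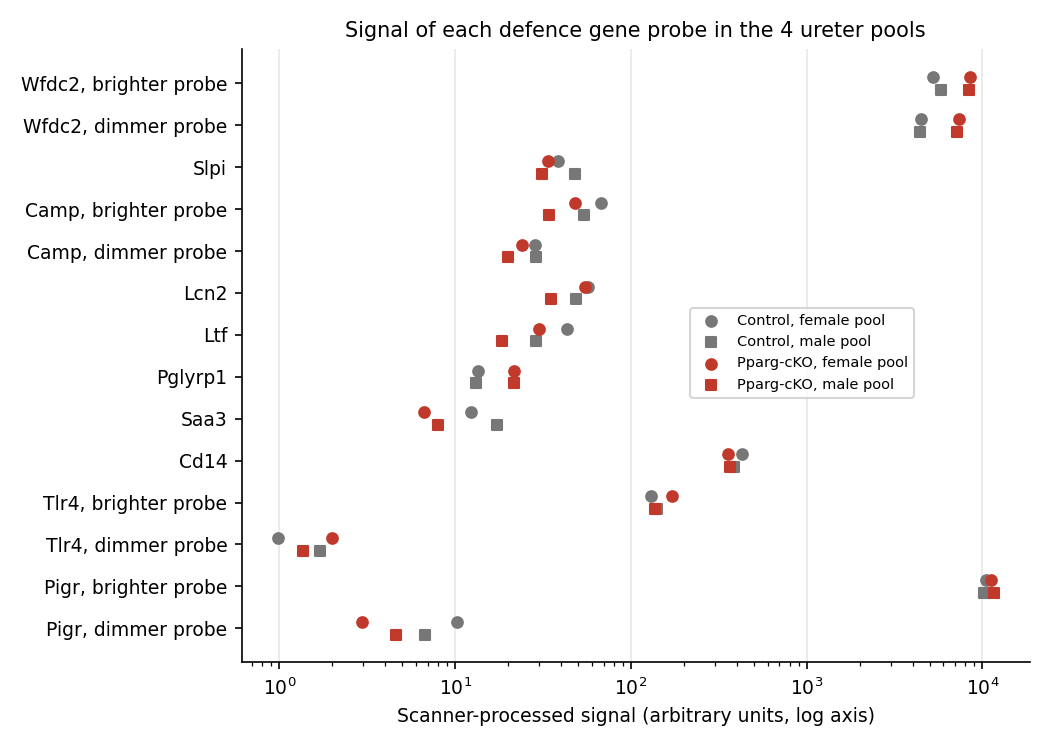
Scanner-processed signal of each of the 14 probes (arbitrary units, log axis) in the 4 pools; grey, control; red, Pparg-cKO; circles, female pools; squares, male pools. Only the pools of the same probe can be compared, and the signals were not scaled between the arrays. Both Pparg-cKO pools lie above both control pools for both Wfdc2 probes and for Pglyrp1, and below them for both Camp probes, Saa3, Slpi and Cd14. They also lie above them for the A and G repeat probe of Pigr, and below them for its dimmer probe, which was at background in 1 pool of each genotype.

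Wfdc2 and Slpi encode small secreted proteins with whey acidic protein (WAP) domains; Slpi is an inhibitor of neutrophil elastase with antibacterial activity, and Wfdc2 is expressed in many secretory and mucosal epithelia. The Wfdc2 probe at base 648 gave 8468 in the female Pparg-cKO pool and 5210 in the female control pool, and 8390 and 5811 in the male pools. The probe at base 292 gave 7359 and 4473 in the female pools and 7135 and 4413 in the male pools. On both probes, both Pparg-cKO pools stood above both control pools, and the pools of a genotype lay close together. The log2 ratio of Pparg-cKO over control at base 648 was 0.72 in the female and 0.54 in the male pair, giving a mean of 0.63 ± 0.13 (SD, n = 2 arrays) or 1.55-fold, an SE of 0.11 and a limma adjusted p of 0.137. Its male value fell short of 1.5-fold, so the gene missed the fold rule with this probe. At base 292 the log2 ratio was 0.63 in the female and 0.80 in the male pair, giving a mean of 0.71 ± 0.12 (SD, n = 2 arrays) or 1.64-fold, and this probe passed the fold rule. When every probe above background was tested as a feature of its own, over 30069 probes of which 253 were called, this probe had a limma adjusted p of 0.0801. The array with the higher ratio was the female one for one probe and the male one for the other, so the difference between arrays had no common sign. Each probe stood on 4 spots per array, and the SD of the log2 ratio between these spots was between 0.05 and 0.14.

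Slpi passed neither rule. Its probe (chromosome 2, 164179849 to 164179908, mm9) gave 33.7 in the female Pparg-cKO pool against 38.6 in its control, and 31.0 against 47.8 in the male pools. Both Pparg-cKO pools were below both control pools, with log2 ratios of -0.13 and -0.41 and a limma adjusted p of 0.652. The other WAP-domain protease inhibitors were read from a list of 20 genes, of which 12 could be tested. In limma 0 of these 12 passed in either direction and 0 passed the fold rule, their median log2 ratio was -0.11 beside 0.01 for all genes tested, and 0 were higher on both arrays while 6 were lower on both. Their largest mean difference was a log2 ratio of -0.40, so none of the relatives had a ratio of the size and direction of Wfdc2.

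Markers of other cell types moved beside Wfdc2. Of 11 urothelial markers, all 11 on the array were tested and above background; 8 were lower and 2 higher on both arrays, limma called Krt20 and Upk3b lower, and Upk1a and Upk1b passed the fold rule as lower. Their summed signal was 61662 and 71061 in the Pparg-cKO pools and 105925 and 91440 in the control pools. Upk3a alone gave 31198 and 32498 of these sums against 41122 and 36165, so the sum says little of the dimmer markers. The 2 higher on both arrays were Epcam, an adhesion molecule of all these epithelial cells, and Cdh1. Epcam had log2 ratios of 0.41 and 0.48 and a limma adjusted p of 0.273. Cdh1 had log2 ratios of 0.07 and 1.10 and a limma adjusted p of 0.642. Both are given because of their direction, while Krt18 and Trp63 were lower, with mean log2 ratios of -0.79 and -0.48. Among 7 collecting duct markers, all tested, 3 were higher and 2 lower on both arrays, and limma called Fxyd4 higher with a mean log2 ratio of 2.38. Their summed signal was 728 and 832 against 250 and 278, of which Fxyd4 alone gave 536 and 596 against 77.4 and 109, while Aqp2 and Scnn1g were lower on both arrays. The kidney tubule markers Slc12a1, Slc12a3 and Umod were not above background in any pool, and the other 3 of the 6 tubule markers, Cubn, Lrp2 and Slc34a1, were lower on both arrays. The 7 markers of ureteric mesenchyme and smooth muscle were all above background, with summed signals of 102891 and 98705 against 112384 and 113210. The part of cell composition in the Wfdc2 ratio was not tested, and in pooled tissue fewer cells of a type and less RNA per cell cannot be told apart.

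Camp, the cathelicidin precursor, Lcn2, which binds bacterial siderophores, and Ltf, the iron-binding lactoferrin, are granule proteins of neutrophils and also products of epithelia. The brighter Camp probe (chromosome 9, 109749911 to 109749970, mm9) gave 48.1 in the female Pparg-cKO pool and 67.6 in its control, and 34.3 and 54.1 in the male pools. Its mean log2 ratio was -0.39 ± 0.03 (SD, n = 2 arrays), with a limma adjusted p of 0.355. The overlapping Camp probe gave 24.1 and 28.3 in the female pools and 19.9 and 28.8 in the male pools. Both Camp probes were lower in both Pparg-cKO pools, with female and male log2 ratios of -0.14 and -0.33 at the dimmer probe.

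Ltf (chromosome 9, 110942873 to 110942932, mm9) gave 29.8 against 43.3 in the female pools and 18.4 against 28.8 in the male pools, Pparg-cKO first. The Pparg-cKO pool was lower on each array. Across the arrays the female Pparg-cKO pool lay above the male control pool, in signals that were not scaled between arrays. Its log2 ratio averaged -0.36 ± 0.04 (SD, n = 2 arrays), and the limma adjusted p was 0.407. Lcn2 (chromosome 2, 32240199 to 32240258, mm9) gave 54.9 against 56.8 in the female pools and 35.1 against 48.4 in the male pools. The log2 ratio was -0.04 in the female and -0.25 in the male pair, and the adjusted p in limma was 0.827. The Lcn2 genotypes also overlapped across the arrays in these signals, and the 2 male pools were the lowest of the 4.

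Pglyrp1, a peptidoglycan recognition protein stored in neutrophil granules, had the opposite sign to Camp, Ltf and Lcn2. Its signals (chromosome 7, 19475662 to 19475721, mm9) were 21.7 in the female Pparg-cKO pool, 13.5 in the female control, 21.6 in the male Pparg-cKO pool and 13.1 in the male control. Both Pparg-cKO pools lay above both controls, with log2 ratios of 0.33 and 0.38, a mean of 0.36 ± 0.04 (SD, n = 2 arrays) and a limma adjusted p of 0.407. Saa3, an acute phase serum amyloid A protein made outside the liver as well as in it, gave 6.63 against 12.3 in the female pools and 8.02 against 17.3 in the male pools (chromosome 7, 53970389 to 53970448, mm9). The female Pparg-cKO pool was not well above background for Saa3, so its level was measured in 3 of 4 pools; the log2 ratio averaged -0.36 ± 0.10 (SD, n = 2 arrays) with a limma adjusted p of 0.431. For these dim genes the offset of 50 added to each channel before the log shrinks the ratio. With an offset of 0 and all else kept, the mean log2 ratio was -0.62 for Saa3, 0.56 for Pglyrp1, -0.48 for Ltf and -0.47 for Camp, against 0.63 for the bright gene Wfdc2. With the scanner-processed signals, which also differ in background correction and dye normalisation, the mean log2 ratio was -1.01 for Saa3, 0.70 for Pglyrp1, -0.60 for Ltf and -0.57 for Camp, against 0.62 for Wfdc2. Pglyrp1 thus exceeded Wfdc2 in size there, the ratios of Saa3 rest on a pool in which it was not well above background, and limma called 0 of the 10 genes in either setting.

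**Figure D2:**
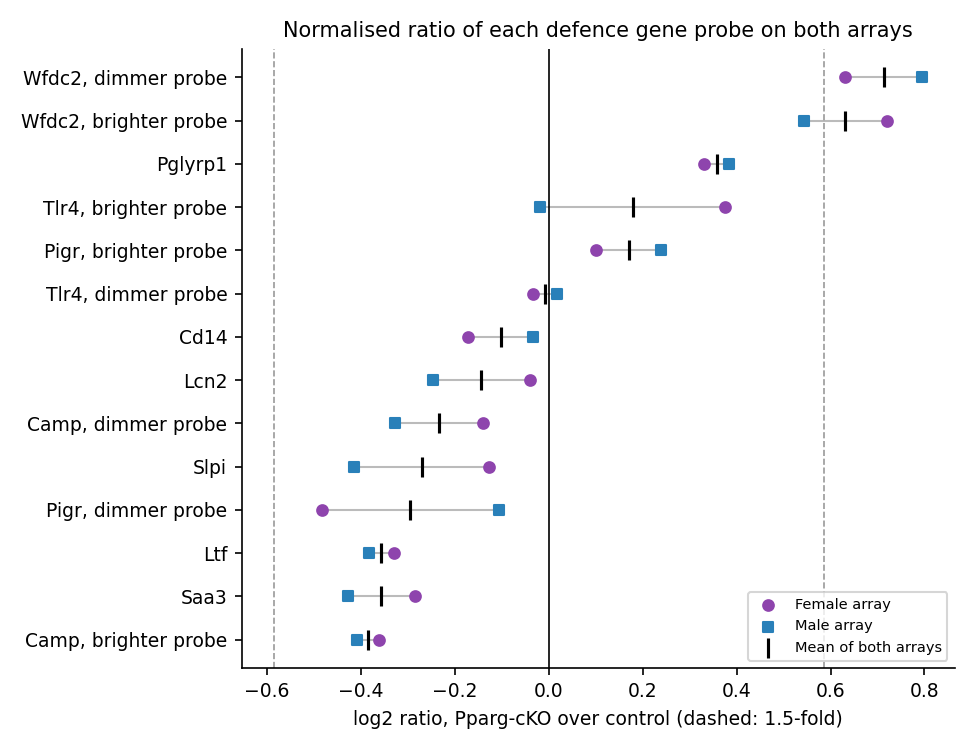
Log2 ratio of Pparg-cKO over control after normalisation for each of the 14 probes; circles, female array; squares, male array; ticks, mean of both arrays; dashed lines, 1.5-fold. The Wfdc2 probes stand to the right of all others, with means of 0.63 and 0.71, and the brighter Camp probe has the lowest mean, -0.39.

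Markers of leukocytes were measured beside the granule genes. All 13 neutrophil markers were on the array and 11 were above background, whereas Cxcr2 and Itgb2l were not above background in any pool. Of the 11, limma called 0 in either direction, 5 were lower and 2 higher on both arrays, and the summed signal of the list was 11494 and 10410 in the Pparg-cKO pools against 10580 and 11455 in the control pools. Csf3r alone gave 9420 and 9017 of these sums against 8611 and 9614, so that the sum says little of the other markers. The granule gene Mpo was higher on both arrays, with log2 ratios of 0.10 and 0.13. Ngp, S100a8, S100a9 and Alb are given because of their values. Ngp, another granule gene, gave 20.3 against 26.3 in the female pools and 11.0 against 19.7 in the male pools. S100a8 and S100a9, the calprotectin subunits, were 350 against 322 and 907 against 901 in the female pools, and 194 against 317 and 470 against 782 in the male pools. The log2 ratios of the calprotectin genes were -0.63 and -0.72 on the male array; on the female array that of S100a8 was 0.13 and that of S100a9, one of the 5 counted as lower on both arrays, was close to 0. Of 7 lymphocyte and general leukocyte markers, Cd3g and Ms4a1 were not above background in any pool; of the other 5, limma called 0, and 2 were higher and 0 lower on both arrays, with summed signals of 218 and 188 against 198 and 194. All 7 erythroid markers passed the filter on background, although Epb4.2 was above background in only 1 pool of each genotype. Of these 7, limma called 0, and 3 were higher and 0 lower on both arrays. Their summed signals were 80226 and 73771 against 72493 and 70794, of which Hba-a1 alone gave 53703 and 48411 against 46532 and 46550. Liver genes also stood higher in the male control pool: Alb, the main plasma protein of liver, gave 598 and 690 in the female pools and 725 and 1540 in the male pools. Of 8 liver markers, all above background, 5 were lower on both arrays. Limma called Ttr lower, with log2 ratios of -2.55 and -3.09, whereas the other 7 lay between -0.19 and 0.21 on the female array; the study counts Ttr among the genes of superficial urothelial cells. The part of leukocytes or of other tissue in the ratios of Camp, Ltf, Lcn2 and Saa3 was not tested.

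Tlr4 and its co-receptor Cd14 recognise bacterial lipopolysaccharide. Cd14 gave 357 in the female Pparg-cKO pool against 428 in its control, and 368 against 385 in the male pools. The genotypes did not overlap in these signals, which were not scaled between arrays. The ratios were small, with a mean log2 ratio of -0.10 ± 0.10 (SD, n = 2 arrays) and a limma adjusted p of 0.896. The Tlr4 probe for the RefSeq transcript (chromosome 4, 66503470 to 66503529, mm9) gave 171 against 130 in the female pools and 137 against 141 in the male pools. The log2 ratio was 0.38 for females and -0.02 for males, with a limma adjusted p of 0.817. The sign on single arrays depended on the normalisation for both genes: with median centring in place of loess the log2 ratio was 0.31 for females and 0.24 for males in Tlr4, and -0.25 and 0.25 in Cd14. A Tlr4 probe for an Ensembl transcript (chromosome 4, 66590077 to 66590136, mm9) was not above background in any of the 4 pools. Macrophages and monocytes also express both genes; their 13 markers were all above background, 6 were higher and 1 lower on both arrays, limma called 0 and the summed signal was 19156 and 16925 in the Pparg-cKO pools against 16813 and 17261 in the controls. Itgam alone gave 8505 and 7658 of these sums against 7120 and 8099.

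The other genes of bacterial recognition did not pass either rule. From a list of 31 receptors, adaptors and kinases around the Toll-like receptors, 29 were tested, limma called 0 in either direction and 0 passed the fold rule. Their median log2 ratio was 0.04 and single genes lay between -0.33 and 0.25, with 7 higher and 7 lower on both arrays. This includes Ly96, the partner of Tlr4 in binding lipopolysaccharide, with a mean log2 ratio of -0.07, and the adaptor Myd88, also with -0.07.

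Pigr, the polymeric immunoglobulin receptor, was at the edge of detection by the probe that matches its chromosome. That probe gave 2.94 in the female Pparg-cKO pool and 10.2 in the female control, and 4.61 and 6.76 in the male pools. It was above background in the female control and the male Pparg-cKO pool and not in the other 2 pools, so that detection did not follow genotype, and its log2 ratios of -0.48 and -0.11 are each read against a pool at background, which leaves its direction unmeasured. The chromosome 19 probe gave 11116 and 10538 in the female pools and 11622 and 10216 in the male pools, with log2 ratios of 0.10 and 0.24 and a limma adjusted p of 0.767. The gene's row in a table by brightest probe was thus set by the A and G repeat. Of 23 probes made of A and G alone, all 23 were above background in all 4 pools, beside 66.3% of all probes, and their mean log2 ratios lay between -0.01 and 0.17. The Pigr repeat probe had the highest ratio of the 23.

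By direction, 3 of the 10 genes were higher on both arrays (Wfdc2, Pglyrp1 and, by its repeat probe, Pigr), where 26.6% of all tested genes were. A further 6 were lower on both arrays (Camp, Ltf, Saa3, Slpi, Lcn2 and Cd14), where 26.2% were, and Tlr4 had opposite signs; with median centring Cd14 left this group and Tlr4 was higher on both arrays. Pools of the genotypes did not overlap in processed signal for 3 genes higher in Pparg-cKO (Wfdc2, Pglyrp1 and, by its repeat probe, Pigr), beside 14.7% of tested genes. The same held for 4 lower genes (Camp, Saa3, Slpi and Cd14), beside 19.9%. These signals were not scaled between the arrays, so both counts also hold differences of array, sex and dye. The median log2 ratio of the 10 genes, with Pigr by its repeat probe, was -0.12, against 0.01 for all genes tested. The genes did not share 1 direction: Wfdc2 was higher and Slpi lower among the WAP-domain genes, and Pglyrp1 was higher and Camp, Ltf and Lcn2 lower among the 4 granule genes, without passing the adjusted test.

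**Figure D3:**
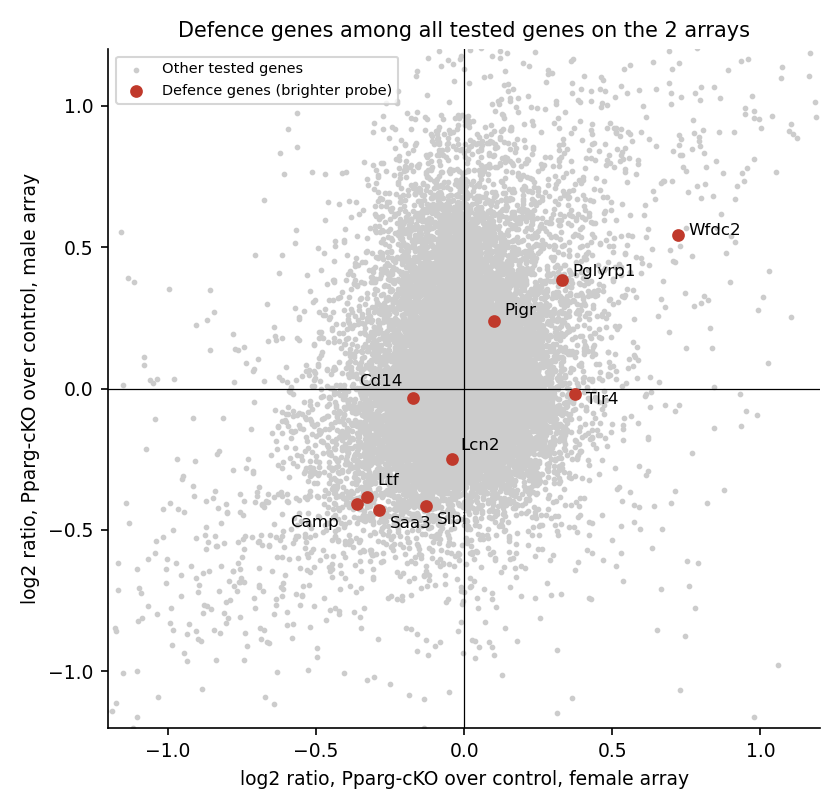
Log2 ratio of Pparg-cKO over control on the female (horizontal) and the male array (vertical) for the tested genes (grey) and the 10 defence genes by their brighter probe (red; for Pigr the A and G repeat probe). A further 217 genes lie beyond the axis limits of 1.2 in at least 1 direction. Wfdc2 lies away from the bulk of genes at 0.72 and 0.54, and the other defence genes lie within or at the rim of it.

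Genes of related functions were read from lists around the members. Among 15 tested genes for antimicrobial peptides and proteins, limma called 0 and 0 passed the fold rule, with a median log2 ratio of -0.05. Their largest ratios were found in dim genes: Defb1, an epithelial beta-defensin, gave 45.8 against 20.9 in the female pools and 51.5 against 13.8 in the male pools, with a limma adjusted p of 0.0894. Lypd8, a secreted protein that binds flagellated bacteria in the colon, gave 64.9 against 27.4 and 69.7 against 31.7, with a limma adjusted p of 0.0580. Reg3g, a C-type lectin that kills Gram-positive bacteria, was not above background in either Pparg-cKO pool and gave 25.8 and 14.1 in the controls, so that it was at least 1.69-fold lower, with a limma adjusted p of 0.0870. Defb1 and Lypd8 were higher and Reg3g lower in both Pparg-cKO pools, and the signals stayed under the minimum of 100 that the fold rule asks for. These genes were singled out after their values were seen.

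In the list of iron handling, limma called 0 of 13 genes and 1, Trf, passed the fold rule. Trf encodes transferrin, the iron carrier of plasma, and gave 1352 against 2316 in the female pools and 1463 against 2652 in the male pools. Both Pparg-cKO pools were below both controls, with log2 ratios of -0.87 and -0.77 and a limma adjusted p of 0.0608. Slc22a17, a receptor for Lcn2, had opposite signs on the arrays, with log2 ratios of -0.25 and 0.60, and Tfrc, the transferrin receptor, had a mean of 0.02. Among 8 tested genes of mucosal immunoglobulin transport, limma called 0 and 0 passed the fold rule. The largest difference there was in Fcmr, the Fc receptor for IgM, which gave 8.69 against 41.5 and 9.85 against 32.6, with a limma adjusted p of 0.0580, and which was also named after its values were seen. Jchain, whose product links the immunoglobulins that Pigr carries, had a mean log2 ratio of 0.03.

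Among 15 tested acute phase and complement genes and 8 tested lipocalins, limma called 0 and 0 passed the fold rule, with median log2 ratios of -0.01 in both lists. Saa1, the liver form of serum amyloid A, had a mean log2 ratio of -0.02. Among the relatives of Lcn2, Ptgds, a lipocalin that makes prostaglandin D2, was 18.3 against 14.7 in the female pools and 25.2 against 138 in the male pools, so that its difference stood on the male control pool alone; Ptgds and the genes named here at ratios near 0 were chosen for display as well. Apart from Trf, none of the genes tested in the 7 lists passed either rule.

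**Figure D4:**
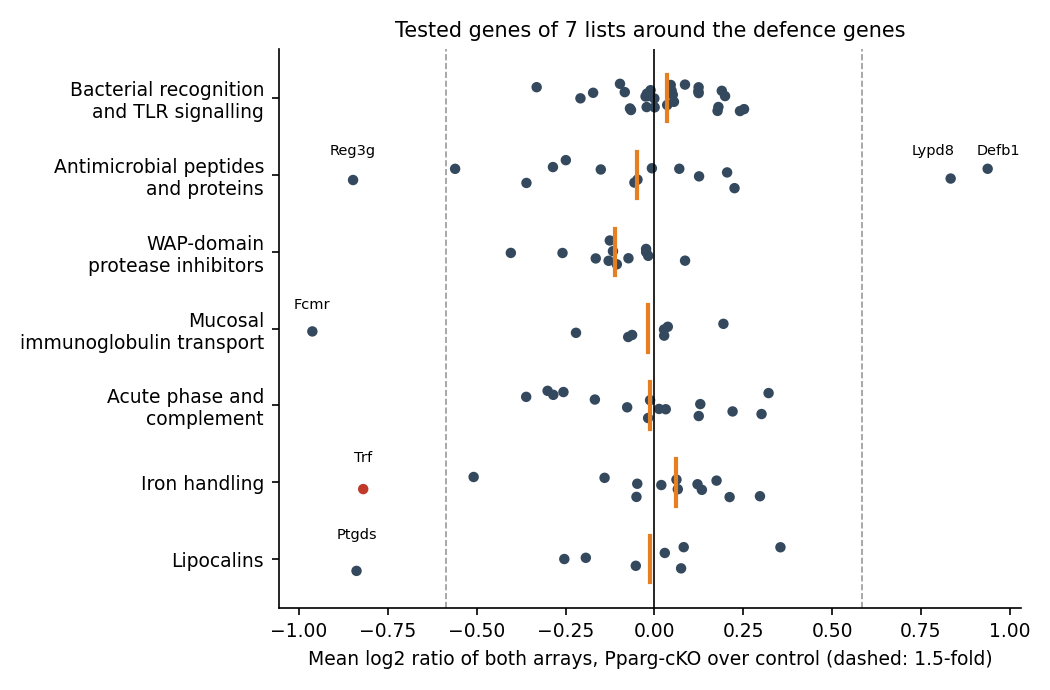
Mean log2 ratio of both arrays, Pparg-cKO over control, for the tested genes of the 7 lists (1 point per gene, spread vertically for display); orange bars, list medians; dashed lines, 1.5-fold; red, past the fold rule. Genes with a ratio beyond 0.7 in size are named; Trf is the one gene in red, and the list medians lie between -0.11 and 0.06.

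PPARG binds DNA with RXR at pairs of the half-site AGGTCA that are 1 base apart. RefSeq promoter windows of assembly GRCm38.p6, from 250 bases before to 50 bases after each start, were given for 8 of the 10 genes. Searched on both strands, AGGTCA was found in 2 of these 8 windows, Wfdc2 and Ltf, and in 16.3% of all 32851 promoter windows. The pair of AGGTCA copies 1 base apart was found in 0 of the 8 windows and in 13 of all. The part of each window from 120 bases before the start up to the start, or to the end of the half-site, is printed with the half-site in capitals, since Wfdc2 and Ltf had ratios of opposite sign.
Wfdc2, chr2:164562595-164562715, plus strand: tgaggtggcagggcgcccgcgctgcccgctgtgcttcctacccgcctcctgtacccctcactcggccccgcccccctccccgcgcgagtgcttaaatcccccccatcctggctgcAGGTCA
Ltf, chr9:111019172-111019291, plus strand: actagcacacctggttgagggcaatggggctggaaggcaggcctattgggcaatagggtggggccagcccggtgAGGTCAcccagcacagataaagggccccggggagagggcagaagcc
In Wfdc2 the half-site runs from -5 to 1 relative to the first transcribed base, and in Ltf from -46 to -41. A match of these letters is a description of the window and no measure of binding.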

How the data were processed

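Total RNA of pooled E18.5 ureters was amplified in 1 round of T7 transcription, labelled with AlexaFluor555 (green) or AlexaFluor647 (red) and read on 2 arrays of 1 slide. Per the file headers and the submitters' processing notes, Agilent Feature Extraction 10.7.3.1 gave the spot intensity (mean signal, median local background and processed signal) of 157716 non-control spots, 4 for each of 39429 probes of 60 bases. The authors' deposited value table held other values, a signed fold change per probe, which served as an alternative and for direction; its median was 1 on both arrays, with 28.3% and 28.4% of cells exactly 1, and whether it was centred is unknown.

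Mean signals underwent normexp background correction (offset 50) and loess normalisation within each array (limma 3.58.1, R 4.3.3), with control spots at weight 0. Outlier flags removed 2.87% and 3.24% of spots; 0 were saturated. Spots of a probe were averaged, and a gene was represented by its probe of highest mean brightness. Tested genes had at least 0.5 of their spots well above background in 1 or more channels on both arrays. The two-sided limma test of the mean ratio had 1 residual and 4.00 prior degrees of freedom. Its precision is limited by the number of arrays. The variance behind each p-value joins the gene's own spread between these arrays with a prior from all genes, and the prior weighs more here. The pipeline was tested on simulated data. By rule, all members were named, with genes of the lists past limma or the fold rule, and markers near background or past either. Members past the fold rule would have had their 3 nearest genes named, and there were none. Further genes, such as Epcam, Mpo, Ly96 and Tfrc, were named outside the rule to show single values. The members, the lists and these rules were chosen with earlier results of these data known. Gene names are those of the array design; 10 of 11 member transcripts matched RefSeq. Alternatives changed the background correction, normalisation, filter, probe rule, direction, thresholds and arrays. Probe positions are those of mm9, as the design gives them, and promoters those of GRCm38.p6; the builds were not mixed.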

Additional observations from a re-analysis of the deposited data

Results flagged for a closer look

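C3, the central complement component and a gene of the acute phase list, moved in opposite directions on the arrays by at least 1.2-fold each, with log2 ratios of 0.33 for the female and -0.48 for the male pair. The male ratio minus the female ratio was -0.81. The same held for the urothelial marker Krt5, a keratin of basal cells, with -0.86 and 0.35 and a difference of 1.203, and for the neutrophil marker Elane, neutrophil elastase, with 0.33 and -0.28 and a difference of -0.61. With 1 array per sex and dye orientation these differences were not tested, and sex, dye and array cannot be told apart. None of the 10 defence genes met this condition.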

How the results depend on the processing

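In limma, 0 of the 10 genes were called in each of the 8 other settings run: scanner-processed signals, an offset of 0, median centring, the median over all probes, no filter on dim probes, the deposited table, the dye labels as written and every probe as a feature, the last chosen after seeing the data. The deposited table gave 0 calls among all genes, so its 0 says nothing of the members. The dye labels as written only turn the sign, so their calls are those of the main fit. The other settings called 94 to 571 features, beside 169. The lowest adjusted p among the genes was 0.0544 for Wfdc2, with an offset of 0, and its adjusted p ranged from 0.0544 to 0.533. At an unadjusted p under 0.05 the count of 5 genes became 6 with an offset of 0 and 1 with median centring, while that of all genes went from 1914 to 2216 and to 1106. The count past the fold rule rose from 0 to 1, Wfdc2, with the median over all probes, with every probe as a feature and at 1.2-fold, where 241, 309 and 865 features passed in all, beside 258. Leaving out 1 array gave 0 to 1, where 1253 and 443 genes passed. It stayed at 0 at 2-fold, at a signal minimum of 50 or 200 and in the other settings. The Pigr ratio turned to -0.063 with the median over all probes, a median that includes its probe near background. With the dye labels as written the mean log2 ratios were 0.14 for Lcn2, 0.36 for Ltf, -0.17 for Pigr, 0.39 for Camp, 0.36 for Saa3, 0.27 for Slpi, -0.63 for Wfdc2, 0.10 for Cd14, -0.18 for Tlr4 and -0.36 for Pglyrp1. In the other settings on both arrays the means of the 10 genes kept their signs. Without the filter on dim probes and with every probe as a feature the ratios are those of the main fit, so these signs could not change. With median centring the male ratio of Cd14 turned to 0.25 and that of Tlr4 to 0.24. Across the settings other than the dye labels as written, the ratio of Wfdc2 lay between 0.60 and 0.67 and that of Saa3 between -1.03 and -0.36. On 1 array alone, Wfdc2 ranged from 0.54 to 0.72 and Saa3 from -0.43 to -0.29, and Tlr4 turned to -0.02 without the female array. The arrays shared 1 slide, so the slide as a block was not run. Each ratio already pairs the genotypes within an array, so no further block applies.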
